A study of Mus musculus with 10 samples.

Results

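The enzymes of the citric acid cycle were followed by 9 genes, Cs, Idh3a, Idh3b, Ogdh, Dlst, Suclg1, Fh1, Mdh1 and Mdh2, of 18193 genes named on the arrays. All probe sets annotated to these symbols were taken, 25 in all, whatever their values. The genes themselves were chosen with earlier results of these data known. RNA came from LSK/CD48- cells, a stem cell-enriched bone marrow fraction that is lineage-negative, Sca-1-positive, Kit-positive and without CD48. It was taken from 5 Mx1-cre;Mll F/F mice and 5 Mll F/F mice, with 1 array for each mouse. All mice were females of 8 weeks on a B6.SJL-Ptprca Pep3b/BoyJ background. Both groups carried floxed alleles of Mll, which encodes a histone H3 lysine 4 methyltransferase, and both received 3 injections of pI:pC, a double-stranded RNA that induces interferon, 48 hours apart. Each injection held 10 µg per gram of mouse plus 50 µg, and marrow was taken on day 6. The mice with cre are called Mll-deficient and those without cre control. The Mx1 promoter answers to interferon in many cell types, so deletion was not limited to the sorted cells, and effects of cre and of Mll loss cannot be told apart.

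The citric acid cycle is a ring of mitochondrial reactions that joins acetyl-CoA to oxaloacetate, oxidises the resulting citrate stepwise to carbon dioxide and passes the electrons to the respiratory chain. Blood stem cells are known for relying more on glycolysis than their progeny do, with mitochondrial oxidation gaining weight as cells leave quiescence and differentiate. Mll binds unmethylated CpG dinucleotides through its CXXC domain, so the CpG content of the enzyme genes' promoters is of interest here.

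Promoter sequences from RefSeq (build GRCm38.p6), each 300 bases around the annotated start and mostly upstream of it, were found for 8 of the 9 genes, as 13 windows, 6 of them of Ogdh. They held a median of 21 CpG dinucleotides, and the 13028 windows of all tested genes held a median of 19 (quartiles 10 and 28). The windows of Cs, which had the only probe set that passed the test, of Fh1, whose groups were separate, and of Mdh1, whose brightest probe set lay lower in Mll-deficient cells, are shown 5′ to 3′ with CpG dinucleotides in capitals. That of Cs lies at chr10:128337477-128337776 on the plus strand and held 18 CpG. That of Fh1 lies at chr1:175625586-175625885 on the minus strand and held 14, and that of Mdh1 at chr11:21571885-21572184 on the minus strand and held 21.
Cs: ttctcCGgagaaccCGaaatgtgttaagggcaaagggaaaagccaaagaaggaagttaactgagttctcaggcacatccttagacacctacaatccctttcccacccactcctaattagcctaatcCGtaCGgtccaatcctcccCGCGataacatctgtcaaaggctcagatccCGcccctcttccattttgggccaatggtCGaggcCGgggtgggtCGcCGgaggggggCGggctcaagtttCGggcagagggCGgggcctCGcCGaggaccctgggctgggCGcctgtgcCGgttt
Fh1: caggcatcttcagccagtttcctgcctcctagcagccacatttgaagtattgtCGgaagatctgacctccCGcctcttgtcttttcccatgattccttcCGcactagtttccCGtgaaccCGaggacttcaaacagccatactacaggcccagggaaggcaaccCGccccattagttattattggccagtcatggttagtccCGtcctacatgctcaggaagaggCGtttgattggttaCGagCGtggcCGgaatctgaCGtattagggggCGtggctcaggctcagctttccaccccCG
Mdh1: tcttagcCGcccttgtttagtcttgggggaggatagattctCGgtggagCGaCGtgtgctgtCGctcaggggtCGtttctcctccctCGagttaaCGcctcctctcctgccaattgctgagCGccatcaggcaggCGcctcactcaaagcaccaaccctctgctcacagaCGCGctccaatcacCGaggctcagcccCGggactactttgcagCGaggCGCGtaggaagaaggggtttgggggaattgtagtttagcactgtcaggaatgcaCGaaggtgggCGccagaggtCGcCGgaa
By CpG count, 44.5%, 33.8% and 53.3% of the tested genes' windows held fewer than those of Cs, Fh1 and Mdh1, so all 3 stood in the middle range. On both strands, the estrogen-related receptor site TCAAGGTCA was found in 0 of the 13 windows and in 0.315% of the tested genes' windows. The GABP site CCGGAAGT was found in 1 window, that of Dlst, and in 7.50% of the tested genes' windows. A match is only a run of letters, and its absence applies to these windows alone.

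The deposited values are MAS5 signals on a linear scale in arbitrary units, scaled to the same trimmed mean on every array, so the brightness of different probe sets is not comparable between genes. Median signals of the arrays lay between 18.1 and 28.9. Control replicate 5 had the lowest mean correlation with its own group, 0.926 against 0.952 to 0.960 for the remaining 4. It also had the highest log2 ratio of 3' over middle signal for the Gapdh and Actb control probe sets, 5.19 against 1.73 to 3.40. That ratio, a measure of RNA quality, was 2.95 ± 1.41 (SD, n = 5) in controls and 3.14 ± 0.60 in Mll-deficient samples (two-sided exact permutation p = 0.810). Of the genes listed as stem cell markers, Kit, which the gate selects, had a signal of 126 ± 34.2 in the control and 72.3 ± 27.0 in the Mll-deficient group. Procr, a stem cell gene outside the gate, read 1124 ± 562 and 538 ± 296, and Slamf1 101 ± 39.0 and 54.8 ± 6.65. Cd34 lay higher instead, at 332 ± 70.3 and 417 ± 185, as did Cd48, which the gate excludes, at 109 ± 63.1 and 124 ± 41.5 (SD, n = 5 each). None of these passed in limma (adjusted p = 0.132 for Kit, 0.0863 for Procr, 0.139 for Slamf1, 0.626 for Cd34 and 0.722 for Cd48). Sca-1 (Ly6a) was not analysed here. The deleted gene, listed as Kmt2a, read 52.2 to 304 in Mll-deficient samples and 170 to 399 in controls at 1427283_at, and 25.4 to 99.0 and 43.8 to 106 at 1452377_at, with neither passing. Where these probes lie relative to the deleted part is not given in the sources used here, so their signals are no check of the deletion. The granulocyte genes S100a8 and S100a9, which the lineage gate should leave out, read 17415 or more and 17339 or more on all 10 arrays. Levels within the granulocyte and monocyte list varied widely. Itgam, of the same list, was dim, at 47.9 to 62.8 in controls and 6.27 to 43.7 in Mll-deficient samples. Its log2 difference, Mll-deficient minus control, was -0.73. Elane (0.97), Ctsg (0.81) and Mpo (0.71), also of that list, went the other way, though their groups overlapped. Of the 7 genes tested from the list, 5 lay above 0 and 2 below, and 0 passed in limma.

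At the brightest probe set of each gene, 6 of the 9 enzyme genes lay higher and 3 lower in Mll-deficient cells, and none passed an adjusted p of 0.05. Of all tested genes, 46.6% lay higher. Among all 12580 tested genes 5.52% passed, made up of 3.76% that rose and 1.76% that fell. At an unadjusted p of 0.05, 3 enzyme genes passed, all higher (Idh3a, Idh3b and Fh1), where 10.5% of all tested genes did so in that direction. The median log2 difference of the 9 genes, Mll-deficient minus control on the log2(signal + 16) scale, was 0.29, beside -0.04 over all tested genes. For Idh3b and Fh1, 2 of the 9, every Mll-deficient array was above every control, as for 4.42% of all tested genes, and no enzyme gene had the reverse order, as 2.54% of all tested genes did. RNA was compared per sorted sample, so more cells of one kind and more RNA per cell cannot be told apart. The summed signal of 9 erythroid marker genes moved with the groups, from 4661 to 7300 in controls to between 15498 and 18215 in Mll-deficient samples, and 7 of these 9 genes rose. All 10 S phase genes lay above 0 and 2 of them rose. At an unadjusted limma p under 0.05, 4 lay higher, and for 2 every Mll-deficient array was above every control. The summed signal of the 10, in which the brightest probe sets weigh most, overlapped between groups. It ranged from 31475 to 51144 in controls and from 38767 to 51982 in Mll-deficient samples. Of the genes listed for other cells, 0 of 7 granulocyte and monocyte, 0 of 4 B cell, 0 of 3 T and natural killer cell and 0 of 5 megakaryocyte genes passed, while 1 of 6 genes listed for the sorted stem cells fell, Ptprc, which encodes the general leukocyte antigen CD45. The calls of Ptprc and of Cdc6, one of the S phase genes that rose, were lost with a replicate block (adjusted p = 0.0680 and 0.0577). The part of these markers in the enzyme values was not tested.

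**Figure D1:**
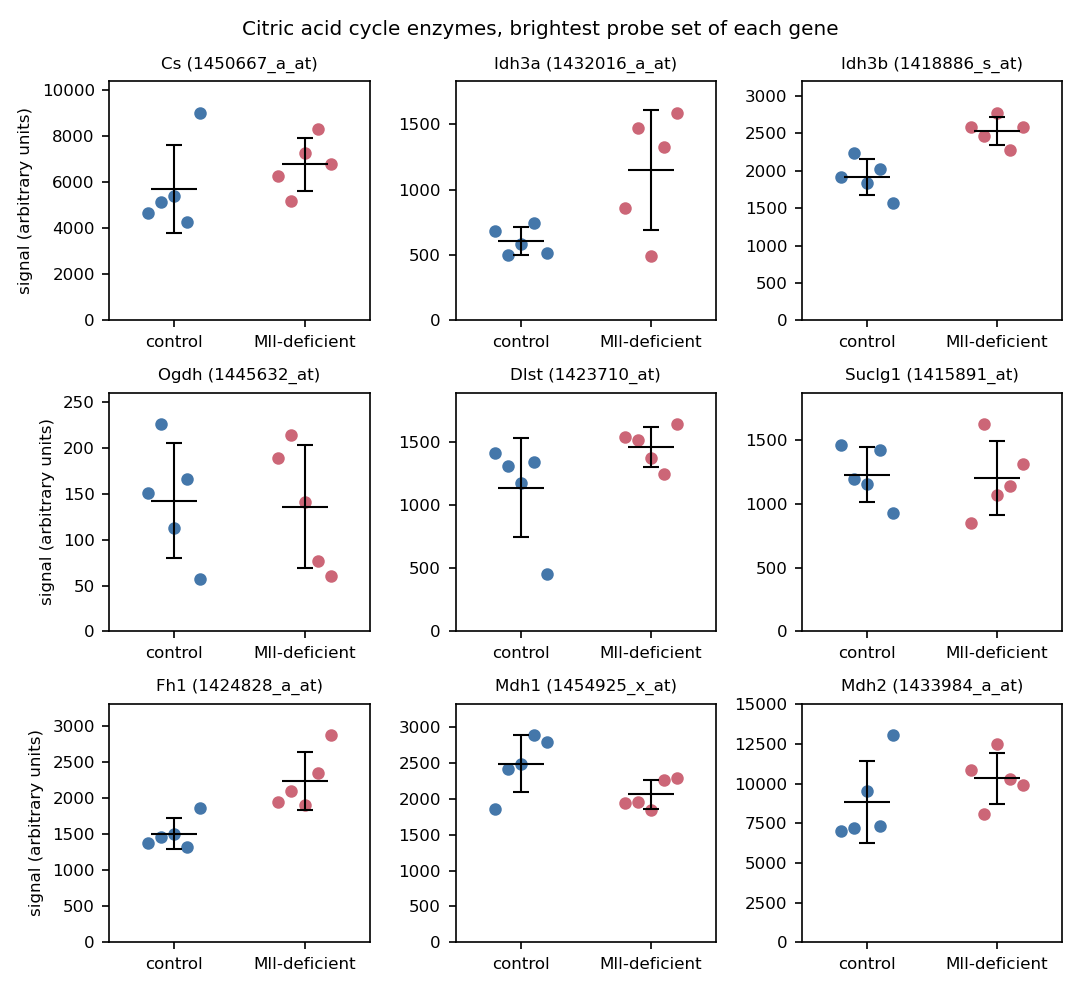
Signal of the brightest probe set of each enzyme gene, in arbitrary units, on a linear axis from 0. Points are single arrays in replicate order and black bars show the mean ± SD (n = 5). The groups are separate for Idh3b and Fh1 and overlap for the other genes, with Dlst at 453 in control replicate 5.

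Citrate synthase, encoded by Cs, makes citrate from acetyl-CoA and oxaloacetate at the entry of the cycle. One of its 3 probe sets, 1422577_at, rose in Mll-deficient cells. It read 524, 595, 542, 555 and 619 in control replicates 1 to 5 and 1044, 736, 1135, 1117 and 1031 in Mll-deficient replicates 1 to 5. The groups did not overlap, and Mll-deficient replicate 2 was the lowest of its group. The log2 difference was 0.81 ± 0.20 (SE, adjusted p = 0.0315 over 27022 probe sets). Leaving out single arrays gave adjusted p values from 0.0225 to 0.0818, and 7 of these 10 fits ended the call (without control replicate 1, 3 or 4, or Mll-deficient replicate 1, 3, 4 or 5). It also ended with a replicate block (adjusted p = 0.0680). The brightest probe set, 1450667_a_at, read 4664, 5134, 5417, 4272 and 9035 in controls and 6296, 5203, 7285, 8341 and 6793 in Mll-deficient samples. Control replicate 5 was above every Mll-deficient array, and the groups overlapped (0.29 ± 0.22, SE, adjusted p = 0.501 over genes). Without that array the difference was 0.46 (adjusted p = 0.114). At the remaining probe set, 1422578_at, the same array was the lowest of all 10, at 556, beside 796 to 1464 in the other controls and 1018 to 1678 in Mll-deficient samples (0.53 ± 0.25, SE, adjusted p = 0.271). So the probe sets of Cs placed control replicate 5 at opposite ends, while all 3 differences were above 0. With the 3 probe sets averaged, the gene passed, at 0.54 (adjusted p = 0.0494).

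Isocitrate dehydrogenase 3, the NAD-dependent enzyme that turns isocitrate into 2-oxoglutarate, is built from a catalytic subunit (Idh3a) and further subunits that include Idh3b. Idh3a had the largest difference of the 9 genes. Its brightest probe set, 1432016_a_at, read 680, 503, 582, 748 and 518 in controls and 861, 1468, 493, 1328 and 1588 in Mll-deficient samples. Of the Mll-deficient arrays, 4 lay above every control and replicate 3 below all of them. The difference was 0.80 ± 0.28 (SE, adjusted p = 0.112). Without Mll-deficient replicate 3 it was 1.07 and passed (adjusted p = 0.0224). The other 3 probe sets of Idh3a were dim, with group means of at most 65.0, and differed by 0.15, 0.52 and 0.73 with none passing. Averaged over all 4, Idh3a passed at 0.55 (adjusted p = 0.0261). It did not pass in the other 10 alternatives with all arrays or the other 9 with 1 array left out (adjusted p up to 0.260).

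Idh3b varied little between arrays. Its brightest probe set, 1418886_s_at, read 1923, 2237, 1843, 2019 and 1575 in controls and 2584, 2466, 2777, 2274 and 2580 in Mll-deficient samples. Every Mll-deficient array was above every control, though the difference of 0.41 ± 0.17 (SE) did not pass (adjusted p = 0.193, and 0.0477 with RNA quality as a covariate). With all 3 probe sets averaged the difference was 0.19 (adjusted p = 0.461). The suffix _s_at marks probes that can match several transcripts, so the signal may not come from Idh3b alone. A second probe set, 1418885_a_at, also showed no overlap, at 1498 to 1858 in controls and 1952 to 2756 in Mll-deficient samples (0.48 ± 0.19, SE, adjusted p = 0.177). The last, 1441271_at, was dim, at 17.3 ± 7.80 and 10.6 ± 4.64 (SD, n = 5 each), and its difference was -0.31 (adjusted p = 0.522). The within-array difference between Idh3a and Idh3b was 0.40 higher in Mll-deficient samples (two-sided exact permutation p = 0.365, also after adjustment over the 3 pairs compared). It was 0.70 without Mll-deficient replicate 3 (adjusted p = 0.0952) and 0.26 without Mll-deficient replicate 5.

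The 2-oxoglutarate dehydrogenase complex turns 2-oxoglutarate into succinyl-CoA, with Ogdh as its first enzyme and Dlst as its lipoate-bearing core. The probe sets of Ogdh disagreed. At 1445632_at the controls read 151, 227, 113, 167 and 56.9 and the Mll-deficient samples 189, 214, 141, 77.3 and 59.98, a difference of -0.08 ± 0.35 (SE, adjusted p = 0.927). Both groups held high and low arrays and overlapped over nearly their whole range, and the sign turned without control replicate 2 (0.10) or Mll-deficient replicate 4 (0.06) or 5 (0.14). The dimmer probe set, 1451274_at, read 51.4 to 145 in controls and 107 to 189 in Mll-deficient samples (0.55 ± 0.25, SE, adjusted p = 0.254).

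Dlst at its brightest probe set, 1423710_at, read 1410, 1310, 1174, 1335 and 453 in controls and 1534, 1511, 1370, 1241 and 1642 in Mll-deficient samples. Control replicate 5 lay far below the rest, and the other 4 controls overlapped with the Mll-deficient arrays. The difference of 0.45 ± 0.27 (SE, adjusted p = 0.374) was 0.15 without that array and 0.013 with all 4 probe sets averaged (adjusted p = 0.975). The remaining 3 probe sets of Dlst, with group means of at most 129, differed by -0.50, -0.27 and 0.37, and none passed. The Ogdh minus Dlst difference within arrays differed by -0.53 (exact permutation p = 0.167, adjusted p = 0.250 over 3 pairs), by -0.27 without Mll-deficient replicate 5, and by 0.22 with all probe sets averaged.

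Suclg1 encodes the alpha subunit of succinyl-CoA ligase, which forms succinate together with a nucleoside triphosphate. Its single probe set read 1459, 1191, 1153, 1422 and 927 in controls and 852, 1629, 1073, 1140 and 1311 in Mll-deficient samples. The ranges nearly coincided, and the difference was -0.05 ± 0.21 (SE, adjusted p = 0.928).

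Fumarate hydratase, encoded by Fh1, turns fumarate into malate. Its single probe set, 1424828_a_at, read 1376, 1460, 1504, 1325 and 1866 in controls and 1937, 2096, 1902, 2345 and 2876 in Mll-deficient samples. Every Mll-deficient array lay above every control, with control replicate 5 nearest to them. The difference was 0.56 ± 0.19 (SE), a 1.47-fold higher level, and had the smallest p of the 9 genes without passing (adjusted p = 0.0998). Without control replicate 5 it was 0.63 and passed (adjusted p = 0.0426), as it did with array weights (adjusted p = 0.0405) and with RNA quality as a covariate (adjusted p = 0.0256). It did not pass in the other 9 alternatives with all arrays or the other 9 with 1 array left out (adjusted p up to 0.237).

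Mdh2, the mitochondrial malate dehydrogenase, closes the cycle by turning malate into oxaloacetate. Mdh1 is its cytosolic counterpart outside the cycle, and in the malate-aspartate shuttle, where it makes malate from oxaloacetate, the pair carries reducing equivalents across the mitochondrial membrane. Mdh2 at 1433984_a_at read 7026, 7213, 9545, 7319 and 13094 in controls and 10862, 8105, 12478, 10277 and 9936 in Mll-deficient samples. Control replicate 5 was again the highest of all 10, and the groups overlapped (0.25 ± 0.21, SE, adjusted p = 0.531). Without that array the difference was 0.41 (adjusted p = 0.153). At its other probe set, 1416478_a_at, the groups did not overlap, with 1940, 1908, 2162, 1979 and 1875 in controls and 2448, 2374, 3177, 2477 and 3254 in Mll-deficient samples (0.46 ± 0.18, SE, adjusted p = 0.182).

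Mdh1 was the member with the lowest difference. Its brightest probe set, 1454925_x_at, read 1863, 2417, 2489, 2892 and 2791 in controls and 1942, 1954, 1847, 2263 and 2295 in Mll-deficient samples. Control replicate 1 lay among the Mll-deficient arrays and the other 4 controls above all of them (-0.26 ± 0.18, SE, adjusted p = 0.458). The suffix _x_at marks probes that can bind other sequences too, and 1436834_x_at carries it as well (-0.21 ± 0.24, SE, adjusted p = 0.711). A probe set without that suffix, 1448172_at, read 1264, 1201, 1266, 1332 and 645 in controls and 1194, 1311, 1071, 954 and 1456 in Mll-deficient samples, a difference of 0.10 ± 0.23 (SE, adjusted p = 0.874). Without control replicate 5, the lowest array, it was -0.09. Of the remaining Mdh1 probe sets, 1438338_at differed by -0.18 and 1434319_at, below the filter on dim probe sets, read 5.48 ± 3.80 in Mll-deficient samples and 14.5 ± 13.5 in controls (SD, n = 5 each). The within-array difference of Mdh2 minus Mdh1 was 0.52 higher in Mll-deficient samples (exact permutation p = 0.0397), which did not pass after adjustment over the 3 pairs (adjusted p = 0.119). It passed with all probe sets averaged (0.55, adjusted p = 0.0238), with quantile normalization (0.44, adjusted p = 0.0476) and without control replicate 5 (0.62, adjusted p = 0.0238). The average gives equal weight to dim Mdh1 probe sets, 1438338_at (-0.18) and the unfiltered 1434319_at (-0.42), and to the bright 1448172_at (0.10). The Mdh2 minus Mdh1 difference did not pass in the other 4 alternatives with all arrays, among them the replicate block (sign-flip test, adjusted p = 0.375). Nor did it pass in the other 9 with 1 array left out (adjusted p up to 0.238).

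**Figure D2:**
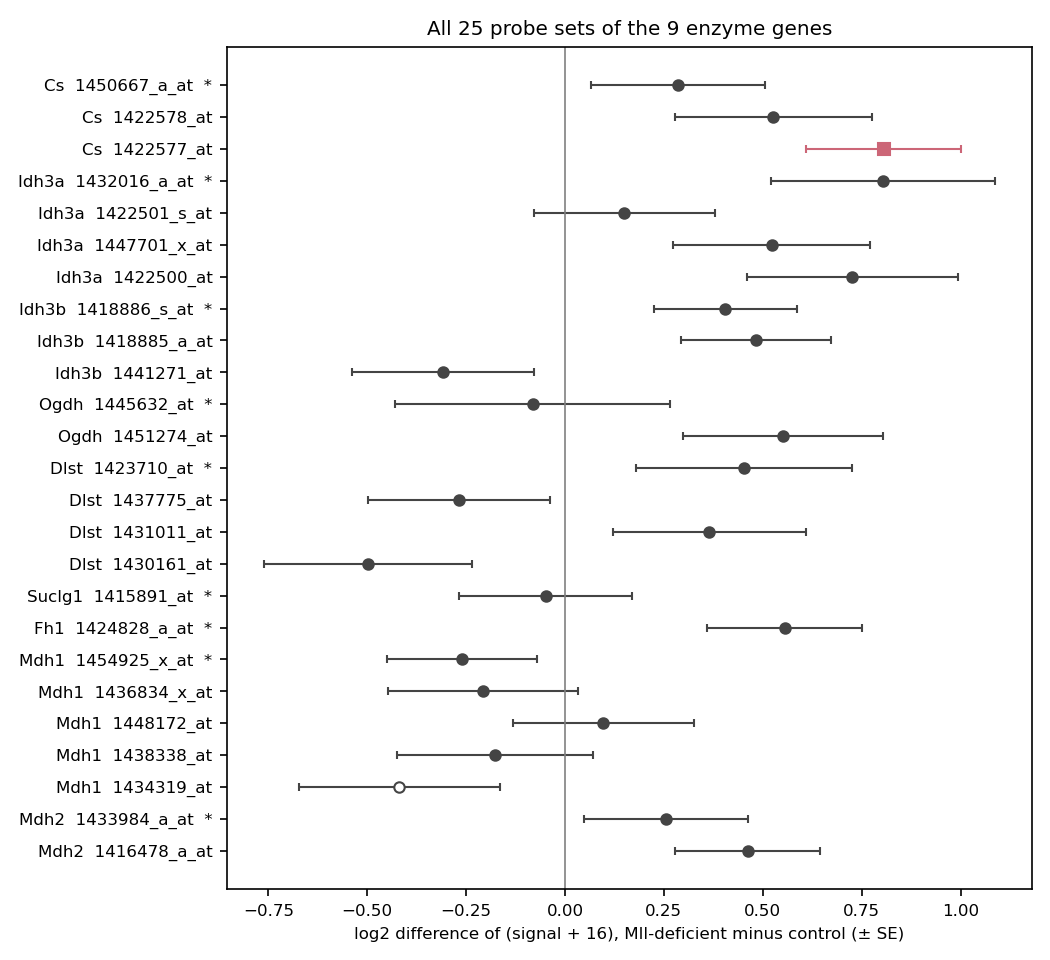
Log2 difference between Mll-deficient and control arrays for each of the 25 probe sets, with the standard error of the limma fit. The red square passed (Cs 1422577_at, adjusted p = 0.0315), the open circle was below the filter, and an asterisk marks the brightest probe set of a gene. The 16 tested probe sets right of 0 include all those of Cs, Idh3a, Fh1 and Mdh2.

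Over probe sets, 24 of the 25 passed the filter on dim values, 16 of them above 0 (66.7%, beside 42.9% of all tested probe sets) and 8 below, with a median difference of 0.33 beside -0.07 over all 27022 tested probe sets. Of the 24, 1 rose and 0 fell, beside 2.12% and 1.16% of all tested probe sets, and 9 had an unadjusted limma p under 0.05, beside 18.3% of all tested probe sets. Complete separation of the groups was seen for 5, all higher, from Cs, Idh3b, Fh1 and Mdh2, beside 3.26% of all tested probe sets, and for 0 in the lower direction, beside 2.42%. Probe sets of one gene read the same RNA and are not independent. Of the 14 probe sets with a mean signal of 400 or more, 11 lay above 0, and the other 3 were the single one of Suclg1 and both _x_at ones of Mdh1. The share above 0 among all probe sets of that brightness was not computed, so this count has no background beside it. Without control replicate 5 the count above 0 was 10, with Mdh1 1448172_at below 0 as well. It was 12 without control replicate 1 or 4 or Mll-deficient replicate 1, with Suclg1 above 0.

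Across arrays the 9 genes did not move as one block. Averaged over the 9 genes, each centred on its own mean, the controls lay between -0.27 and -0.05 on the log2 scale and the Mll-deficient arrays between 0.03 and 0.22. Within this average, control replicate 5 held the lowest Dlst and Ogdh values and the highest Cs and Mdh2 values of all 10 arrays. Between genes, Pearson's r over the 10 arrays ranged from -0.75 for Suclg1 and Mdh2 to 0.89 for Cs and Mdh2. These points share their scaling, amplification and group difference, and the values are given as a description. The genes most like the 9-gene average over the 10 arrays were Timm8a1 (r = 0.970), which encodes a mitochondrial import chaperone, the splicing factor gene Prpf31 (r = 0.967), the ribosome assembly genes Utp20 (r = 0.967) and Pno1 (r = 0.963), and the replication gene Rpa2 (r = 0.957). The 9-gene average itself separated the groups, so genes chosen for following it tend to differ between them too. A test of their group difference is therefore no separate evidence. The control mean of Timm8a1 was 602 ± 130 and its Mll-deficient mean 1212 ± 217 (SD, n = 5 each).

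**Figure D3:**
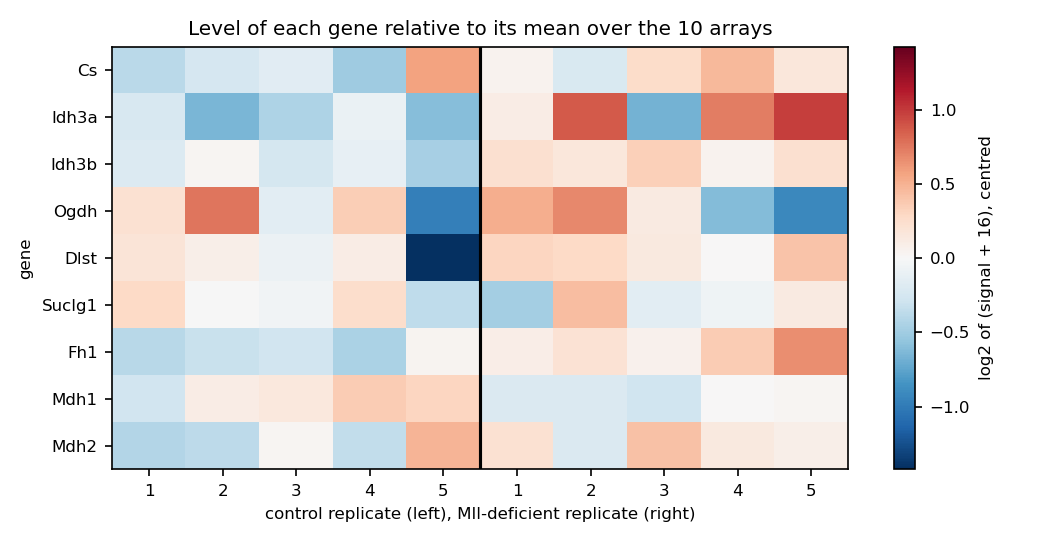
Level of the brightest probe set of each enzyme gene on each array, as log2(signal + 16) minus the gene's mean over the 10 arrays. Control replicate 5 is low for Dlst and Ogdh and high for Cs and Mdh2, and Mll-deficient replicates 2, 4 and 5 are high for Idh3a.

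At the brightest probe set, differences were also above 0 for the other subunits and enzymes of the cycle that were tested. These were 8 genes (Idh3g, Dld, Sucla2, Suclg2, Sdha, Sdhb, Sdhc and Sdhd). Each of these 8 lay above 0 (median 0.33), beside 46.6% of all tested genes. In limma 0 passed, beside 5.52% of all tested genes. Of their other tested probe sets, those of Sdha (-0.01 and -0.09) and Sdhd (-0.02) lay below 0. Those of Idh3g (0.60), Sucla2 (0.02), Suclg2 (0.29) and Sdhc (0.04) lay above 0. At an unadjusted limma p under 0.05, 1 lay higher, Suclg2, beside 10.5% of all tested genes in that direction. Suclg2, the beta subunit of the GTP-forming succinyl-CoA ligase and so the partner of Suclg1, had signals of 362 ± 70.4 in control and 567 ± 67.2 in Mll-deficient cells (SD, n = 5 each). Its difference was 0.64 ± 0.20 (SE, adjusted p = 0.0739). No array of one group reached the other, with a highest control of 450 and a lowest Mll-deficient array of 467. Such separation, higher in Mll-deficient cells, was seen for 4.42% of all tested genes. The brightest Suclg2 probe set carries the suffix _s_at, so its signal may not come from Suclg2 alone. The dimmer Suclg2 probe set had means of 30.3 ± 24.0 in control and 35.3 ± 13.1 in Mll-deficient cells (SD, n = 5 each). Sdhb, the iron-sulphur subunit of succinate dehydrogenase, was second by p, at 0.41 ± 0.20 (adjusted p = 0.245).

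For the entry of pyruvate, 11 of 14 listed genes were tested, 8 above 0 and 3 below, with a median of 0.26, and 0 passed. Of all tested genes, 46.6% lay above 0 and 5.52% passed. At an unadjusted limma p under 0.05, 3 passed, all higher, beside 10.5% of all tested genes in that direction and 20.7% in either. These were Pdhb, Dlat and Pcx, the last named after its values were seen and dim, at 29.9 ± 13.8 and 48.8 ± 9.53 (SD, n = 5 each). Pdhb and Dlat encode subunits of pyruvate dehydrogenase, which makes the cycle's acetyl-CoA. Pdhb read 832 ± 132 and 1237 ± 253 (SD, n = 5 each, difference 0.56 ± 0.20, SE, adjusted p = 0.117), and Dlat differed by 0.71 ± 0.30 (adjusted p = 0.181).

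Slc25a1, the mitochondrial carrier that exports citrate to the cytosol, rose. It read 394, 460, 385, 321 and 400 in controls and 748, 664, 689, 822 and 716 in Mll-deficient samples. The groups stood well apart, and the difference was 0.87 ± 0.18 (SE, adjusted p = 0.0125). The call held in all 21 alternatives run, including each left-out array, with a highest adjusted p of 0.0390. It was the only 1 of 13 tested genes of the cytosolic counterparts and the shuttle that passed, where 3.76% of all tested genes rose. Of the 13, 9 lay above 0, beside 46.6% of all tested genes, and 4 below, with a list median of 0.24.

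Among genes that feed glutamine carbon into the cycle or handle its 2-hydroxy acids, 3 were tested and 0 passed in limma, beside 5.52% of all tested genes. At an unadjusted limma p under 0.05, 1 lay higher, as did 10.5% of all tested genes. That was Pck2, the mitochondrial phosphoenolpyruvate carboxykinase, at 0.54 ± 0.22 (SE, adjusted p = 0.160), and Glud1, glutamate dehydrogenase, stood at -0.34 ± 0.22 (adjusted p = 0.417). Of 6 genes for lipoate attachment, which Dlst and Dlat need, and for succinate dehydrogenase assembly, 5 lay above 0, beside 46.6% of all tested genes. In limma 0 passed, and again 1 lay higher at an unadjusted p under 0.05, beside the same 10.5%. That was Lias, which makes the lipoyl group, with 1123 ± 204 in controls and 1754 ± 284 in Mll-deficient samples (SD, n = 5 each, difference 0.64 ± 0.20, SE, adjusted p = 0.0713). Sdhaf4 followed at 0.48 ± 0.24 (adjusted p = 0.262). The brightest Lias probe set carries the suffix _s_at, so its signal may not come from Lias alone. The dimmer Lias probe sets, with group means of at most 117, differed by 0.50 and -0.19, and neither passed.

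**Figure D4:**
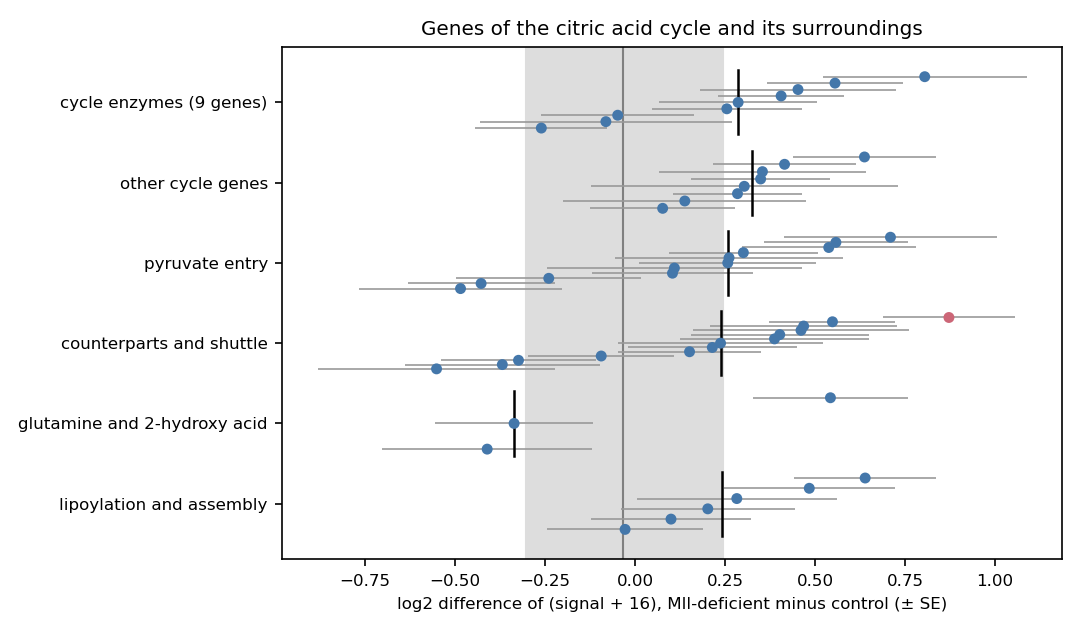
Log2 difference ± SE for each tested gene of the 9 enzymes and of 5 surrounding lists. Black ticks are list medians, the grey line and band the median and quartiles of all 12580 tested genes (-0.04, from -0.30 to 0.24), and the red point is Slc25a1 (0.87), the only gene shown that passed.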

How the data were processed

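Expression was measured on 10 Affymetrix mouse arrays, of RNA amplified from 1500 to 10000 sorted cells, which favours 3' ends. Per the submitters' processing notes, MAS5 (version 5.0) gave the deposited intensity values, whose mean, trimmed by 2% at each end, was 150.001 on each array. They were used as log2(signal + 16), which understates changes of dim probe sets. Of 45101 probe sets, 34958 had 1 symbol, 932 several and 9211 none here, and 34754 were updated through RefSeq (GRCm38.p6). A gene was represented by its brightest probe set, and probe sets with a mean above the 40th percentile were tested.

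The test was limma's moderated test (version 3.58.1, R 4.3.3, lmFit, then eBayes with an intensity trend, two-sided), adjusted by Benjamini-Hochberg over all 12580 genes or 27022 probe sets. Pairs of enzymes were compared by exact permutation over 252 assignments, with a smallest possible p of 0.00794. In data simulated for this comparison over 12580 genes, 1 of 50 genes changed by 0.5 and 15 of 50 changed by 1 (log2) were recovered, as were 49 of 50 changed by 2 and 47 of 50 changed by 3. The simulation called 121 genes, 9 of them unchanged, beside 694 in the data. The adjusted threshold depends on how many genes change, so these recoveries need not hold for the data. The members and lists were chosen with earlier results of these data known. Named were the members, the list genes that passed or else the 2 with the smallest p, and the 5 genes most like the members' mean over arrays. Arrays of the same replicate number did not pair (correlations of their deviations from -0.23 to 0.28). Some listed genes are not reported here. Alternatives covered the offset, normalization, filter, averaged probe sets, variance prior, array weights, RNA quality, a replicate block and leaving out each array. The number of arrays limits the precision.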

Additional observations from a re-analysis of the deposited data

Results flagged for a closer look

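Of 50 groups of 5 arrays (25 probe sets, each in both genotypes), 4 held an array whose gap to the nearest other exceeded 0.71 of the group's range, where chance flags about 1 in 20. Control replicate 5 was the outlying array for Dlst at 1423710_at, with a signal of 453, and for Mdh1 at 1448172_at, with 645, the lowest control in both. In Mll-deficient cells, replicate 2 was low for Cs at 1422577_at, with 736, and replicate 5 was low for Dlst at 1437775_at, with 67.7.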

How the results depend on the processing

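Of 189 values of the 9 enzyme genes over 11 alternatives with all arrays and 10 with 1 array left out, 179 kept their direction and 172 also their side of the threshold. The count of 694 genes was 1618 with the RNA quality covariate and ranged from 317 to 875 with 1 array left out. The count of enzyme genes that passed, 0, was 2 with averaged probe sets (Cs and Idh3a), 1 with array weights (Fh1), 2 with the RNA quality covariate (Fh1 and Idh3b) and 0 to 1 with 1 array left out (Fh1 without control replicate 5, Idh3a without Mll-deficient replicate 3). The count of their probe sets, 1, was 4 with the RNA quality covariate, 0 with the replicate block and 0 to 1 with 1 array left out. Of the other calls named in the text, the replicate block ended those of Ptprc and Cdc6, and under it the Mdh2 minus Mdh1 difference stayed at 0.52 with an adjusted p of 0.375 in a sign-flip test whose smallest p is 0.0625. Of the other cycle genes, 1 passed with the RNA quality covariate (Suclg2). The Mdh2 minus Mdh1 difference passed with quantile normalization (0.44), with averaged probe sets (0.55) and without control replicate 5 (0.62), in a range from 0.40 to 0.62 with 1 array left out. Ogdh minus Dlst became 0.22 with averaged probe sets and ranged from -0.70 to -0.27 with 1 array left out, and Idh3a minus Idh3b from 0.26 to 0.70. Averaged probe sets gave 0.013 for Dlst and 0.19 for Idh3b. Ogdh turned to 0.00037 with quantile normalization, 0.23 with averaged probe sets, 0.024 with the RNA quality covariate, and ranged from -0.34 to 0.14 with 1 array left out. Suclg1 turned to 0.011 with median centring and ranged from -0.17 to 0.065 with 1 array left out. The cause was not tested. No scaling moved the median difference of all genes by more than 0.1. Signal over background limits the dim probe sets, 8 of the 25 having a mean under 100.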
